A study of Homo sapiens with 14 samples.

Results

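Negative feedback on the RAS-ERK pathway was examined through 10 genes, namely the phosphatase genes DUSP1, DUSP4, DUSP5 and DUSP6, the Sprouty genes SPRY1, SPRY2 and SPRY4, the Spred genes SPRED1 and SPRED2, and PHLDA1. They were chosen by name from the 59471 gene names counted in each library, and all 10 were found. The libraries came from SCC23, an established line of head and neck squamous cell carcinoma (HNSCC), either KMT2D-WT (transfected with a guide against LacZ, per the study's methods) or edited with CRISPR/Cas9 as the KMT2D-KO lines KO1 and KO2, which were sorted for the GFP of the guide vector with no cloning of single cells described. Cells stayed in high glucose (+Glc) or were deprived of glucose for 6 h (-Glc). Experiment 1 gave 1 KMT2D-WT, 1 KO1 and 1 KO2 library in each glucose condition, and experiment 2 gave 2 KMT2D-WT, 1 KO1 and 1 KO2 library, which makes 3 KMT2D-WT and 4 KMT2D-KO libraries for +Glc and the same for -Glc. The labels do not say whether libraries of a group came from separate cultures, and the p-values then measure only the spread between these libraries, which may be technical.

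Growth factor receptors signal through RAS, RAF and MEK to the ERK kinases, and active ERK switches on genes whose products turn the pathway down. Dual-specificity phosphatases remove the activating phosphates from ERK itself, Sprouty and Spred proteins act upstream at the level of receptors, RAS and RAF, and Spred proteins bring the RAS inactivator NF1 to the membrane. Several of these genes are also induced by stress independently of ERK, DUSP1 above all, and in squamous carcinoma the receptor EGFR is a common source of the signal.

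The promoter sequences of DUSP1, DUSP6 and PHLDA1 are shown because DUSP1 and PHLDA1 rose and DUSP6 fell in KMT2D-KO cells when glucose was removed. RefSeq windows were found for 8 of the 10 genes (12 windows), of which DUSP4 and DUSP5 were not part. Each sequence holds the 250 bases before a RefSeq start on GRCh38.p14, 5′ to 3′ along the gene, and capitals mark matches on either strand to TGACG, the core of the cyclic AMP response element (CRE). The DUSP1 window lies at chr5:172771196-172771445 (minus strand), the DUSP6 window at chr12:89352502-89352751 (minus strand) and the PHLDA1 window at chr12:76031777-76032026 (minus strand).
DUSP1: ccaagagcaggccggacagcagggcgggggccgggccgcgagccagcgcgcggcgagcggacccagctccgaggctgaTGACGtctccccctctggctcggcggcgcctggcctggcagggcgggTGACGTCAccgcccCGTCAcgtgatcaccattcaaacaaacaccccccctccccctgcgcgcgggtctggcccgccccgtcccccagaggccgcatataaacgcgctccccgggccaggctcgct
DUSP6: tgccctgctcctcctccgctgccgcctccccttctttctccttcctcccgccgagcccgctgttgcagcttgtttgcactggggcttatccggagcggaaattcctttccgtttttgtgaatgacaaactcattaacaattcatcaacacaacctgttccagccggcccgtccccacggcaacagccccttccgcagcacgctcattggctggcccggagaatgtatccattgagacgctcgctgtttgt
PHLDA1: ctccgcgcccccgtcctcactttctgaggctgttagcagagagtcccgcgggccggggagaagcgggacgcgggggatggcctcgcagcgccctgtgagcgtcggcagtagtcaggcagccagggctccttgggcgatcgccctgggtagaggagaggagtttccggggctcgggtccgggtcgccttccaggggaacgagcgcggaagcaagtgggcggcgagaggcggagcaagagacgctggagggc

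The DUSP1 window held the full palindrome TGACGTCA, which begins 125 bases before the start, and it was the only one of the 12 windows to do so. Of all 35116 RefSeq windows of the same length, 1.65% held it. TGACG was matched 4 times in the DUSP1 window, counting both strands and the overlaps with the palindrome, and 1 time each in a window of SPRY4 and a window of SPRY2, against 21.2% of all windows with at least 1 match. The ETS motif CCGGAAG was matched in a window of SPRY1 (8.52% of all windows), while the AP-1 motif TGANTCA (6.57%) and the CArG box, bound by serum response factor (1.16%), were matched in none of the 12. These matches describe letters and no binding was measured here.

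A library held between 15669154 and 62968057 counts in total, and the 4 +Glc libraries of experiment 2 were sequenced as read pairs of which both mates entered the counts. Levels are given as CPM, read counts scaled to a common library size after TMM normalization. KMT2D, the targeted gene, was at 279, 266 and 271 CPM in the KMT2D-WT (+Glc) libraries, at 182 and 184 CPM in the libraries labelled KO1 and at 323 and 373 CPM in those labelled KO2. In -Glc cells it was at 239, 233 and 231 CPM in KMT2D-WT libraries and at 190.2, 152 and 145 CPM in KMT2D-KO libraries, apart from the library labelled KO1 of experiment 1, which was at 19.9 CPM. Editing of the reading frame need not change RNA level, so KMT2D RNA does not test the labels fully. The 2 -Glc KMT2D-KO libraries of experiment 2, labelled KO1 and KO2, differed by a chi-square of 1.78 per gene, and the 2 KMT2D-WT libraries beside them by 1.71. Other pairs labelled KO1 and KO2 differed by 25.9 (+Glc) and 74.4 (-Glc) in experiment 1 and by 83 (+Glc) in experiment 2. The 2 KMT2D-WT (+Glc) libraries of experiment 2 differed by 28.7, so large values were not limited to pairs of lines. The chi-square also rises with depth, which differed between pairs. The -Glc pair of experiment 2 was thus closer than any other pair labelled KO1 and KO2. TXNIP, whose transcription follows glucose, was at 119 to 137 CPM in KMT2D-WT (+Glc) and at 5.15 to 6.27 CPM in KMT2D-WT (-Glc) libraries. In KMT2D-KO libraries it was at 44.9 to 67.5 CPM with glucose and at 3.20 to 3.61 CPM without, apart from 9.72 CPM in the -Glc library labelled KO1 of experiment 1. Summed markers of squamous epithelium (8 genes) ranged from 760 to 803 CPM in KMT2D-WT (+Glc), 510 to 998 CPM in KMT2D-KO (+Glc), 870.1 to 879 CPM in KMT2D-WT (-Glc) and 959 to 2482 CPM in KMT2D-KO (-Glc) libraries. Summed markers of other cell types (8 genes) stayed between 9.06 and 25.4 CPM, and PTPRC, the pan-leukocyte marker, was at 0 in each library of 3 of the 4 groups.

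Levels were first compared between the 10 genes per kilobase of exon, since longer genes collect more reads. In KMT2D-WT (+Glc) cells DUSP5 (31.6 ± 2.21 CPM per kb, SD, n = 3), DUSP1 (27.4 ± 3.50), DUSP4 (19.8 ± 4.18) and PHLDA1 (18.9 ± 1.16) were the highest, and each of these neighbours overlapped in range. SPRED2 (10.9 ± 0.793 CPM per kb), DUSP6 (8.21 ± 2.09) and SPRY4 (8.0 ± 1.13) followed with overlapping ranges, then SPRED1 (4.13 ± 1.34), SPRY2 (0.835 ± 0.0507) and SPRY1 (0.324 ± 0.0691), each apart from the gene above it. In KMT2D-KO (-Glc) cells the order was led by DUSP1 (125 ± 37.8 CPM per kb, SD, n = 4) and PHLDA1 (47.6 ± 4.81), whose ranges did not overlap. DUSP1 was the most variable gene, with a 23.3-fold range over the 14 libraries, followed by DUSP5 with 10.3-fold, and SPRED2 varied least with 1.71-fold.

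**Figure D1:**
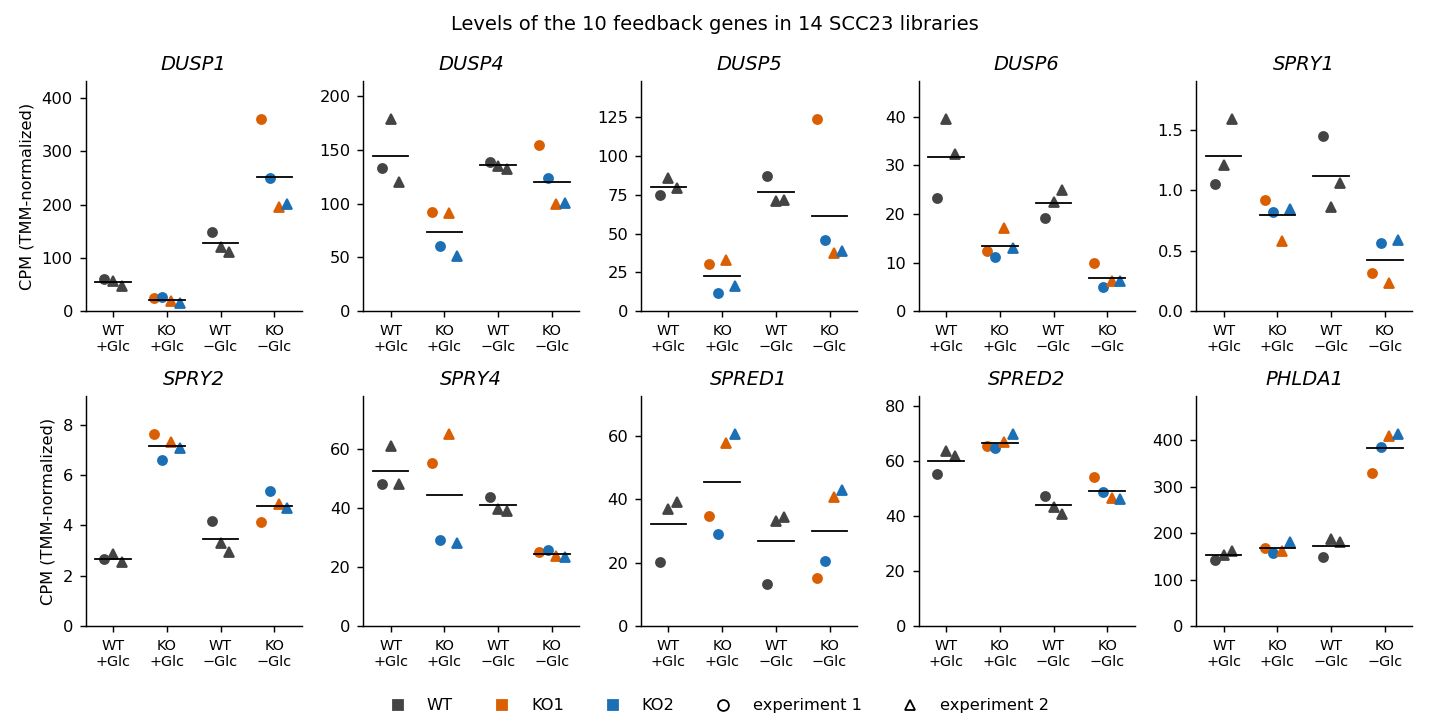
Level of each of the 10 genes in the 14 libraries, in CPM on linear axes that start at 0, by genotype and glucose. Points are libraries, colours mark KMT2D-WT, KO1 and KO2 as labelled, shapes mark the experiment and black lines are group means. DUSP1 was at 15.4 to 26.4 CPM in KMT2D-KO (+Glc) libraries and at 195 to 359.6 CPM in KMT2D-KO (-Glc) libraries.

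The first question was how loss of KMT2D, a histone H3K4 methyltransferase that acts at enhancers, altered the feedback genes in cells kept in glucose. All 4 phosphatase genes were lower in KMT2D-KO than in KMT2D-WT cells, by log2 fold changes from -0.96 to -1.77, while SPRY2 and SPRED1 were higher. SPRY1, SPRY4, SPRED2 and PHLDA1 did not pass the test. Genes were called at a Benjamini-Hochberg adjusted p under 0.05 from quasi-likelihood fits in edgeR, here over 20423 genes and with experiment as a covariate. On this rule 6 of the 10 genes were called, beside 24.7% of all genes tested, 4 of them lower (11.7% of all genes) and 2 higher (13.0%). The median log2 fold change of the 10 genes was -0.47, against 0.02 over all genes tested. In bulk libraries such as these, fewer cells with a transcript and less RNA per cell cannot be told apart.

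DUSP1, on chromosome 5 from 172768096 to 172771195 (GRCh38, Ensembl 102, as are all gene positions here), encodes a nuclear phosphatase of p38, JNK and ERK that is induced within minutes of stress or growth factors. It was at 61.2, 57.0 and 47.4 CPM in KMT2D-WT (+Glc) libraries and at 24.5 (KO1) and 26.4 (KO2) CPM in experiment 1 and 19.3 (KO1) and 15.4 (KO2) CPM in experiment 2. All 4 KMT2D-KO libraries lay below all 3 KMT2D-WT libraries. The log2 fold change was -1.45 (SE, the standard error of the fit, 0.13, with an edgeR adjusted p = 0.000155).

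DUSP6 (chromosome 12, 89347235 to 89352501) encodes a cytoplasmic phosphatase of ERK whose transcript is widely used as a readout of ERK output. It was at 23.3, 39.5 and 32.3 CPM in KMT2D-WT (+Glc) libraries and at 12.4, 11.2, 17 and 13.0 CPM in KMT2D-KO libraries, which did not overlap them (log2 fold change -1.15, SE 0.14, edgeR adjusted p = 0.000703). An antisense gene, AC024909.1, shares 28.6% of its exonic bases, and reads of the pair cannot be told apart by strand in these counts.

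DUSP5 (chromosome 10, 110497907 to 110511533), a nuclear phosphatase specific for ERK, was at 75.1, 86.1 and 79.2 CPM in KMT2D-WT (+Glc) libraries, at 30.7 and 32.7 CPM in those labelled KO1 and at 12.0 and 16.4 CPM in those labelled KO2. Each KMT2D-KO library was below the KMT2D-WT range, and the libraries labelled KO2 were below those labelled KO1. The change was -1.77 on the log2 scale (SE 0.30, edgeR adjusted p = 0.00332), and it was not called without the KMT2D-WT library of experiment 1. DUSP4 (chromosome 8, 29333064 to 29350684), a nuclear phosphatase of ERK and JNK, was at 133, 179 and 121 CPM in KMT2D-WT libraries, at 92.0 and 91.0 CPM in those labelled KO1 and at 60.3 and 51.4 CPM in those labelled KO2, again without overlap. Its log2 fold change was -0.96 (SE 0.23, edgeR adjusted p = 0.016), and it was not called without the KMT2D-WT library of experiment 1 (-1.08) or without the first KMT2D-WT library of experiment 2 (-0.77). Without experiment in the edgeR model DUSP4 was not called either (-0.97).

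Against the phosphatases, SPRY2 (chromosome 13, 80335976 to 80341126), a Sprouty protein that binds GRB2 and CBL, was higher in KMT2D-KO cells. Its level was 2.66, 2.86 and 2.53 CPM in KMT2D-WT (+Glc) libraries and 7.62, 6.58, 7.33 and 7.07 CPM in KMT2D-KO libraries, with a wide gap between the groups (log2 fold change 1.42, SE 0.16, edgeR adjusted p = 0.000401). SPRED1 (chromosome 15, 38252836 to 38357249), which recruits NF1 to the membrane, differed more between experiments than between genotypes. In experiment 1 it was at 20.2 CPM in the KMT2D-WT library and at 34.6 and 29.0 CPM in the KMT2D-KO libraries, and in experiment 2 at 36.8 and 39.2 CPM against 57.7 and 60.4 CPM. Within each experiment both KMT2D-KO libraries were above KMT2D-WT, and the pooled groups overlapped (log2 fold change 0.65, SE 0.09, edgeR adjusted p = 0.00131). Without experiment in the model it was not called (0.50).

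The other 4 genes differed by less than the spread allowed the test to call. SPRY1 (chromosome 4, 123396795 to 123403760) was the scarcest gene, at 1.05 to 1.59 CPM in KMT2D-WT and 0.578 to 0.922 CPM in KMT2D-KO (+Glc) libraries (log2 fold change -0.73, edgeR adjusted p = 0.114). SPRED2 (chromosome 2, 65310851 to 65432637) and PHLDA1 (chromosome 12, 76025447 to 76033932) had log2 fold changes of 0.17 and 0.16 (edgeR adjusted p = 0.15 and 0.176). SPRY4 (chromosome 5, 142310427 to 142326455) had a pooled log2 fold change of -0.21 (edgeR adjusted p = 0.658), which averages lines that differed from each other.

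**Figure D2:**
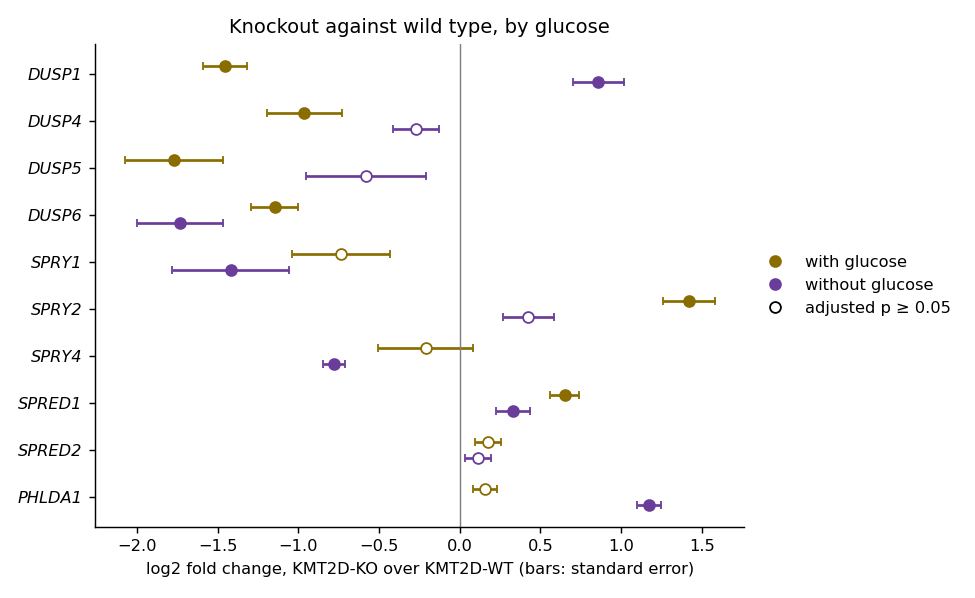
Log2 fold change of KMT2D-KO over KMT2D-WT cells for each gene, with glucose (brown) and without (purple), as points with bars of 1 standard error. Filled points passed the edgeR test at an adjusted p under 0.05, SPRY1 without glucose on 5 to 14 counts in KMT2D-KO libraries. DUSP1 lay at -1.45 with glucose and 0.86 without, and DUSP6 lay at -1.15 and -1.73.

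SPRY4, a Sprouty protein that restrains RAS activation, was at 48.2, 61.0 and 48.2 CPM in KMT2D-WT (+Glc) libraries, at 55.3 and 64.9 CPM in those labelled KO1 and at 28.9 and 28.0 CPM in those labelled KO2. Libraries of KO1 overlapped KMT2D-WT and those of KO2 lay below. When the lines were compared directly in the 7 +Glc libraries (21850 genes tested), SPRY4 was lower in KO2 than in KO1 by a log2 difference of -1.07 (SE 0.12, edgeR adjusted p = 8.93e-06), DUSP5 by -1.13 (SE 0.11, edgeR adjusted p = 2.19e-06) and DUSP4 by -0.71 (SE 0.14, edgeR adjusted p = 0.00198). These 3 of the 10 genes were called, all lower, beside 14.7% of all genes called, 7.32% lower and 7.40% higher (49.7% of the calls lower, or 65.0% with library-size scaling). DUSP1, DUSP6, SPRY2, SPRED1, SPRED2 and PHLDA1 had log2 differences between -0.27 and 0.06 that did not pass, and SPRY1 one of 0.28. KMT2D itself was higher in KO2 than in KO1 by 0.94 (edgeR adjusted p = 7.87e-07). Each line had 1 library in each experiment, without experiment in the model none of the 3 was called, and DUSP4 was also lost without the KO2 library of experiment 2 (log2 difference -0.53). With DESeq2 and experiment in the model DUSP4 was not called either (log2 difference -0.70). The squamous marker keratin gene KRT5 was higher in KO2 by 4.98, and its part in the difference of the feedback genes was not tested.

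**Figure D3:**
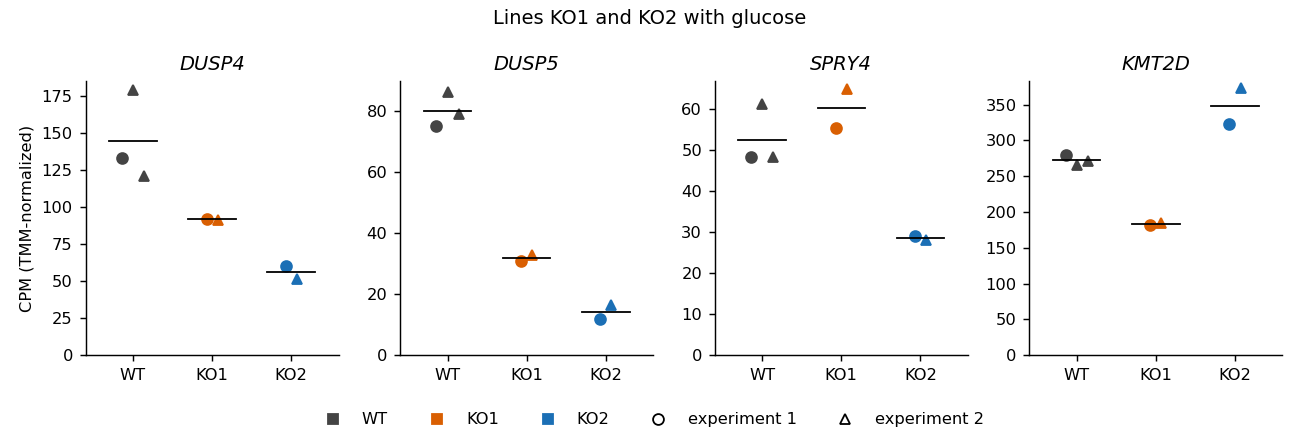
CPM of DUSP4, DUSP5, SPRY4 and the targeted gene KMT2D in the 7 +Glc libraries, by line as labelled, on axes that start at 0. Points are libraries, shapes mark the experiment and black lines are means. For the first 3 genes the libraries labelled KO2 lay below those labelled KO1, and for KMT2D they lay above.

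The second question was how KMT2D loss altered the same genes once glucose had been removed. In -Glc cells DUSP6 and SPRY4 were lower in KMT2D-KO cells, and PHLDA1, DUSP1 and SPRED1 were higher. DUSP4, DUSP5, SPRY2 and SPRED2 did not pass, and SPRY1 had too few reads in KMT2D-KO libraries to be read as a result. Over 16782 genes edgeR called 6 of the 10 genes, beside 50.8% of all genes tested, 3 of them lower with SPRY1 counted (24.9% of all genes) and 3 higher (25.9%), so that the share among these genes was near that of all genes. Of the genes called, 49.0% were lower, or 69.8% with library-size scaling in place of TMM. Their median log2 fold change was -0.08, against 0.00 over all genes tested.

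PHLDA1 encodes a pleckstrin homology-like protein that follows both ERK activity and stress. It shares 16.5% of its exonic bases with AC011611.3 and AC011611.4 on the opposite strand, and without strand in the counts their reads cannot be told apart. It was at 149.5, 188 and 181 CPM in KMT2D-WT (-Glc) libraries and at 328, 385, 409 and 412 CPM in KMT2D-KO libraries, all of which lay above (log2 fold change 1.18, SE 0.07, edgeR adjusted p = 7.06e-05). DUSP1 was at 149, 121 and 111 CPM in KMT2D-WT libraries and at 359.6 (KO1) and 251 (KO2) CPM in experiment 1 and 195 and 201 CPM in experiment 2 in KMT2D-KO libraries. The groups did not overlap, in the direction opposite to that with glucose (log2 fold change 0.86, SE 0.16, edgeR adjusted p = 0.00416). SPRED1 was at 13.3, 33.1 and 34.4 CPM in KMT2D-WT libraries and at 15.2, 20.5, 40.6 and 43.0 CPM in KMT2D-KO libraries, overlapping when pooled (log2 fold change 0.33, edgeR adjusted p = 0.0384), and it was called in only 2 of the 7 fits that left out a library.

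DUSP6 was at 19.1, 22.5 and 25.0 CPM in KMT2D-WT (-Glc) libraries and at 9.97, 4.99, 6.12 and 6.19 CPM in KMT2D-KO libraries. Every KMT2D-KO library lay below the KMT2D-WT range, as it did with glucose (log2 fold change -1.73, SE 0.27, edgeR adjusted p = 0.00188). SPRY4 was at 43.7, 39.6 and 39.1 CPM against 25.0, 25.7, 23.5 and 23.4 CPM, a tight pair of groups without overlap (log2 fold change -0.78, SE 0.07, edgeR adjusted p = 0.000186). The SPRY4 call held in all 7 fits that left out a library but in neither experiment alone. Its log2 fold change was -0.79 in experiment 1, which has 1 KMT2D-WT library without glucose, and -0.75 in experiment 2. SPRY1 was at counts of only 5 to 14 in the KMT2D-KO libraries (0.237 to 0.586 CPM, against 0.859 to 1.45 CPM in KMT2D-WT), and it entered the test through the KMT2D-WT group, where it was higher, so that its call there is given as a description (log2 fold change -1.42). It was called in 4 of the 7 fits that left out a library and in neither experiment alone.

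DUSP5 was at 87.1, 71.2 and 71.9 CPM in KMT2D-WT (-Glc) libraries and at 45.9, 37.7 and 39.0 CPM in 3 of the KMT2D-KO libraries, but at 124 CPM in the library labelled KO1 of experiment 1, the library with 19.9 CPM of KMT2D. DUSP4 showed the same order, at 139, 136 and 132 CPM in KMT2D-WT and at 124, 99.3 and 101 CPM in the same 3 libraries, with 155 CPM in the other. Without that library DUSP5 (log2 fold change -0.94), DUSP4 (-0.37) and SPRY2 (0.50) were also called by edgeR, which made 9 of the 10 genes. With the close pairs of experiment 2 each summed into 1 library, edgeR called only PHLDA1 (log2 fold change 1.21) and SPRY4 (-0.77), while DUSP1 (0.92), DUSP6 (-1.61), SPRY1 (-1.46) and SPRED1 (0.37) kept their direction but were not called.

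Whether the effect of KMT2D loss itself depended on glucose was tested in 1 fit of all 14 libraries (18678 genes). DUSP1 and PHLDA1 had a higher KMT2D-KO effect without glucose, and SPRY2 a lower one. The edgeR test called these 3 of the 10 genes, beside 11.3% of all genes, with 2 higher (4.73% of all genes) and 1 lower (6.54%). Of the genes called 58.0% were lower, or 90.1% with library-size scaling. For DUSP1 the difference of the log2 fold changes was 2.34 (SE 0.20, edgeR adjusted p = 6.9e-05), for PHLDA1 1.05 (SE 0.11, edgeR adjusted p = 0.000362) and for SPRY2 -0.97 (SE 0.23, edgeR adjusted p = 0.0184). DUSP1 and PHLDA1 were called in all 14 fits that left out a library, and SPRY2 in 11 of them. DUSP1 (2.38) and PHLDA1 (1.05) were also called in experiment 2 alone. Neither was called in experiment 1 alone (2.27 and 1.03), which has 1 KMT2D-WT library in each condition. The SPRY2 difference was not called with the close pairs summed (-1.03), without experiment in the model (-0.95) or in either experiment alone (-1.25 and -0.78). In DUSP1 the KMT2D-KO libraries stood at 0.295 to 0.431 times the KMT2D-WT mean of the same experiment with glucose and at 1.68 to 2.41 times without. In SPRY2 they stood at 2.48 to 2.87 times with glucose and at 0.992 to 1.56 times without. The differences for DUSP5 (1.21, edgeR adjusted p = 0.147), DUSP4 (0.72, edgeR adjusted p = 0.141) and DUSP6 (-0.56, edgeR adjusted p = 0.233) did not pass, so that a change in the KMT2D-KO effect on these 3 phosphatase genes was not shown.

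Glucose deprivation itself was compared within each genotype, using the same libraries as above. In KMT2D-WT cells DUSP1 rose and SPRED2 fell, and the other 8 genes did not pass the edgeR test, which called 14.7% of the 17227 genes tested, 7.58% lower and 7.15% higher. DUSP1 rose from a mean of 55.2 ± 7.05 to 127 ± 19.6 CPM (SD, n = 3 libraries each), a log2 fold change of 1.2 (SE 0.09, edgeR adjusted p = 0.0148). SPRED2 fell from 60.2 ± 4.36 to 43.9 ± 3.32 CPM (log2 fold change -0.45, SE 0.09, edgeR adjusted p = 0.0342). PHLDA1 had a log2 fold change of 0.19 (edgeR adjusted p = 0.0703) and DUSP6 one of -0.49 (edgeR adjusted p = 0.0526). In experiment 2 the +Glc libraries were read as pairs and the -Glc libraries as single ends, so glucose and read layout cannot be told apart there. DUSP1 had a log2 fold change of 1.29 in experiment 1 and 1.15 in experiment 2, and SPRED2 of -0.22 and -0.57, and edgeR called them in experiment 2 but not in experiment 1, which has 1 KMT2D-WT library in each condition. Without any 1 of the 4 KMT2D-WT libraries of experiment 2 neither gene was called, and at most 1 of all genes was (DUSP1 between 1.14 and 1.30, SPRED2 between -0.43 and -0.38). Without the KMT2D-WT library of experiment 1 with glucose, or the one without, edgeR called both of them, 6 of the 10 genes and 8744 or 8747 of all genes, against 2536 with all libraries.

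In KMT2D-KO cells DUSP1 and PHLDA1 rose, and DUSP6, SPRY2, SPRED1 and SPRED2 fell. Of 16057 genes tested 30.0% were called by edgeR, 16.0% lower and 14% higher, and 6 of the 10 genes were, 4 lower and 2 higher. Of the genes called 53.5% were lower, or 79.5% with library-size scaling. Over the 10 genes the median was -0.54 on the log2 scale, against 0.00 over all genes tested. DUSP1 rose from 21.4 ± 4.98 to 252 ± 76.1 CPM (SD, n = 4 libraries each), a log2 fold change of 3.52 (SE 0.15, edgeR adjusted p = 7.95e-05), and the lowest deprived library stood far above the highest fed one. PHLDA1 rose from 167 ± 10.2 to 384 ± 38.8 CPM (log2 fold change 1.18, SE 0.09, edgeR adjusted p = 0.000481). Both were called without each library in turn. In experiment 2 glucose and read layout cannot be told apart for KMT2D-KO libraries either, and each of those fits held such libraries. In experiment 1 alone edgeR called DUSP1 but not PHLDA1 (log2 fold change 1.11).

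The falls in KMT2D-KO cells were smaller. SPRED2 fell from 66.7 ± 2.23 to 49.0 ± 3.67 CPM (log2 fold change -0.47, edgeR adjusted p = 0.00755) and DUSP6 from 13.4 ± 2.53 to 6.82 ± 2.17 CPM (-1.0, edgeR adjusted p = 0.024), in both cases without overlap of the groups. SPRY2 fell from 7.15 ± 0.439 to 4.76 ± 0.513 CPM (-0.61, edgeR adjusted p = 0.0291) and SPRED1 from 45.4 ± 15.9 to 29.8 ± 14 CPM (-0.69, edgeR adjusted p = 0.0105), the latter with groups that overlapped. DUSP6 and SPRY2 were each called in 3 of the 8 fits that left out a library. DUSP4 (log2 fold change 0.66, edgeR adjusted p = 0.0554), DUSP5 (1.29, edgeR adjusted p = 0.0785) and SPRY4 (-0.89, edgeR adjusted p = 0.0553) did not pass. Within experiment 1, where all libraries were single-end, DUSP5 was 4.02-fold higher without glucose in the library labelled KO1 and 3.83-fold in that labelled KO2, against 1.16-fold in KMT2D-WT, 1 library over 1 library.

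**Figure D4:**
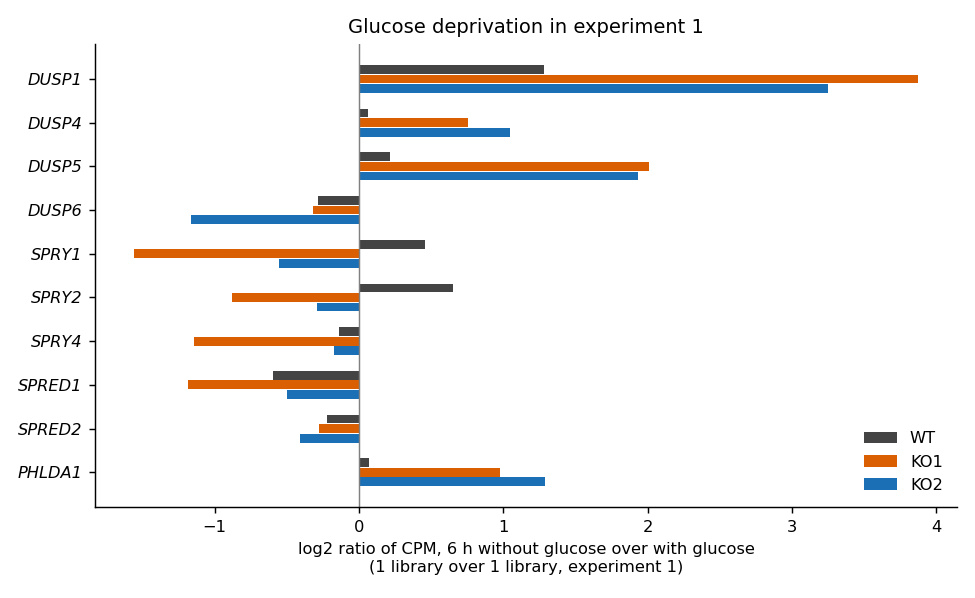
Log2 ratio of CPM without over with glucose in experiment 1 for each gene, 1 library over 1 library, with bars from 0 for KMT2D-WT (grey), KO1 (orange) and KO2 (blue) as labelled. There is no replicate error in these ratios. DUSP1 was at 1.28 in KMT2D-WT, 3.87 in KO1 and 3.25 in KO2, and DUSP6 was below 0 in all 3.

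The pattern of DUSP6 over the 14 libraries was compared with that of 10889 genes with a mean of at least 5 CPM, by the root mean square distance of their centred log2 levels. The nearest gene outside the list was SLFN11 (distance 0.18 on the log2 scale), followed by METTL4 (0.26), CRYBG1 (0.27), MGAT5 (0.27) and GBP3 (0.28). SLFN11, a factor that blocks stressed replication forks, was at 62.3 ± 17.9 and 28.2 ± 7.12 CPM in KMT2D-WT and KMT2D-KO (+Glc) cells and at 46.3 ± 4.82 and 12.0 ± 2.34 CPM in -Glc cells (SD, n = 3 and 4). Of the other feedback genes SPRY4 was the nearest, at rank 614 (distance 0.56), and DUSP1 the farthest, at rank 10577 (1.91).

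Other genes of the pathway were grouped by role, with all calls from the same edgeR fits, which called 24.7% of all genes with glucose and 50.8% without. Among 6 further MAP kinase phosphatase genes, of which 5 were expressed enough to be tested, DUSP7 (an ERK phosphatase) was lower and DUSP8, DUSP9 and DUSP10 higher in KMT2D-KO (-Glc) cells, with a list median of 0.99 on the log2 scale. DUSP10, which acts on p38 and JNK, changed most, from 3.29 ± 1.12 CPM in KMT2D-WT to 16.6 ± 5.19 CPM in KMT2D-KO (-Glc) libraries (log2 fold change 2.19, edgeR adjusted p = 6.54e-05). In +Glc cells it was at 2.72 ± 0.298 and 3.96 ± 0.702 CPM, and its KMT2D-KO effect differed between glucose conditions by 1.72 (edgeR adjusted p = 0.00102). With glucose only DUSP7 (-0.31) was lower and DUSP16 (0.51) higher among these genes.

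Of 10 further feedback regulators, 5 were lower and 2 higher in KMT2D-KO (+Glc) cells, and 4 lower and 3 higher in -Glc cells, with medians of -0.22 and -0.42, so that 7 of 10 were called in each condition, beside 24.7% and 50.8% of all genes. NF1, which inactivates RAS and partners with the Spred proteins, was lower in both (log2 fold changes -1.37 and -1.48, edgeR adjusted p = 3.42e-05 and 3.96e-05). LRIG1, which restrains EGFR, was higher in both (2.53 and 1.87). SPRY3 was higher with glucose (1.22), and SOCS3 was lower without (-1.93). With glucose SOCS3 was at 9.42 to 13.5 CPM in KMT2D-WT and at 4.93 to 6.45 CPM in KMT2D-KO libraries, which did not overlap. ERRFI1, another EGFR inhibitor, was called higher in -Glc but not +Glc cells, at 156 ± 9.69 against 485 ± 134 CPM in -Glc cells, and the difference between conditions passed its own test (1.41, edgeR adjusted p = 0.00417).

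Among 12 genes that respond to ERK, 4 were lower and 3 higher in KMT2D-KO (+Glc) cells (median -0.04), and 3 lower and 4 higher in -Glc cells (median 0.51). These 7 of 12 stand beside 24.7% of all genes with glucose and 50.8% without, and the latter was near their share. The immediate early gene EGR1 was lower in both (log2 fold changes -1.90 and -1.30), and MYC was higher in both (0.82 and 2.12) with a difference between conditions of 1.34 (edgeR adjusted p = 4.49e-05). The cyclin gene CCND1 was higher with glucose (0.75). Without glucose CCND1 was at 198 to 199 CPM in KMT2D-WT and at 347 to 365 CPM in KMT2D-KO libraries, which did not overlap. IER2, another immediate early gene, was lower without glucose (-1.53).

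Among 14 receptor and ligand genes 2 were lower and 3 higher with glucose, and of the 12 tested without glucose 3 were lower and 5 higher. The ERBB ligand gene NRG1 was higher in both (log2 fold changes 1.27 and 2.00), and in +Glc cells the ligand gene BTC was higher (0.78). In -Glc cells BTC was at 4.04 to 4.56 CPM in KMT2D-WT and at 6.39 to 10.3 CPM in KMT2D-KO libraries, which did not overlap. Of 19 genes of the RAS-ERK cascade itself 5 were lower and 2 higher with glucose, and 2 lower and 5 higher without, a share without glucose that was below the 50.8% of all genes. Among them SOS2, a RAS activator, was lower in both (log2 fold changes -0.60 and -1.15). Of 8 genes of stress MAP kinases 1 was lower and 1 higher with glucose and 2 lower and 2 higher without.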

How the data were processed

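RNA-seq libraries of SCC23 cells (14) were grouped by genotype and glucose from their labels. Per the file headers, the authors made the deposited read counts with featureCounts 2.0.3 on primary alignments, by gene name and without strand, on the Ensembl 102 annotation of GRCh38, after mapping with HISAT2, and the counts were not normalized. The study's methods speak of uniquely mapped reads. From 67.4% to 70.6% of the counts from 1 to 10 were even in the 4 libraries read as pairs, against 37.4% to 42.7% in the other 10, whose fragments were counted 1 time. Intervals from counting alone cover only part of the spread, so replicates set the precision.

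Low genes were removed by group with filterByExpr (minimum count 10). The rest were scaled by TMM, and fitted in edgeR 4.0.16 (R 4.3.3) by quasi-likelihood, with experiment as covariate, a term that the study's methods do not name. Calls were made at a Benjamini-Hochberg adjusted p under 0.05. All 10 genes passed the low-count filter in every comparison. Differences between experiments were correlated between genotypes over 18678 genes (0.90 with glucose, 0.73 without). The labels give the experiment, so experiment was kept as the block. For the difference of the KMT2D-KO effects the block was experiment within each glucose condition. The deprivation fits used a single experiment term for both glucose conditions, and whether experiments moved both conditions alike was not tested. The scripts were tested on simulated data. The alternatives tried were models in edgeR that left experiment out, DESeq2 1.42.0 (experiment in or out of the model), RLE or library-size scaling, no filter, halved counts of the 4 paired libraries, summed close pairs, single experiments, single lines, 1 fit of all libraries and each library left out in turn.

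The 10 genes, the other gene lists and the tests were chosen with earlier results of these data known. Named genes are the 10, KMT2D, the check genes of glucose deprivation (TXNIP, ARRDC4, DDIT3, ASNS, CHAC1 and TRIB3), at most 3 called genes with the largest change from each list and comparison, and the 5 genes nearest to DUSP6 (other names complete a count). Promoter windows came from RefSeq (GRCh38.p14). The whole-study ChIP-seq data were not used here. Some results of single genes are not reported here.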

Additional observations from a re-analysis of the deposited data

Results flagged for a closer look

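In the KMT2D-KO (-Glc) group of 4 libraries the library labelled KO1 of experiment 1 stood apart for DUSP5, at 124 CPM against 37.7 to 45.9 CPM in the other 3. It was the 1 flag among 20 checks of groups of 4 libraries, of which chance flags about 1 in 20. The effect of KMT2D loss differed between glucose conditions by a test of the difference for DUSP1 (2.34 on the log2 scale), PHLDA1 (1.05) and SPRY2 (-0.97), and the part of that library was measured by leaving it out (DUSP1 2.24, PHLDA1 1.08, SPRY2 -0.87, all called by edgeR). The lines differed with glucose, KO2 below KO1, for DUSP4 (-0.71), DUSP5 (-1.13) and SPRY4 (-1.07).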

How the results depend on the processing

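Of the 60 results of the 10 genes (10 genes in 6 comparisons), 26 were called, all 26 kept their sign in each alternative, and 15 were called in each fit without 1 library. Of 1060 alternative values 23 had the opposite sign, and none of those 23 was called.

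The number of the 10 genes called was 6 for KMT2D-KO against KMT2D-WT with glucose, 6 without, 3 for the difference of these effects, 2 and 6 for glucose deprivation in KMT2D-WT and KMT2D-KO cells and 3 for KO2 against KO1. Without the replicate block, that is without experiment in the edgeR model, it was 4 with glucose, 5 without and 2 for the difference. In those fits it was 0 for deprivation in KMT2D-WT (2 at an unadjusted p under 0.05), 3 in KMT2D-KO cells and 0 for the lines (3 unadjusted). The count over all genes went from 5042 to 971, 8521 to 3659, 2105 to 70, 2536 to 2, 4813 to 1465 and 3215 to 11. In experiment 1 alone, with 1 KMT2D-WT library a condition, edgeR called 0 with glucose (4 unadjusted), 0 without (3), 0 for the difference (2), 0 for deprivation in KMT2D-WT (1) and 1 in KMT2D-KO cells, and 23, 73, 0, 0 and 20 of all genes. With the close pairs summed it called 2 without glucose, 0 for deprivation in KMT2D-WT (3 unadjusted) and 3 in KMT2D-KO cells, and 2785, 1 and 2282 of all genes, with 258 for the difference. Deprivation in KMT2D-WT cells gave 4 genes with DESeq2 and experiment (6213 of all genes), 4 with no filter (5560) and 4 in experiment 2 alone (6693, with 11782 in KMT2D-KO cells). DESeq2 called 3473 genes for the difference, and without experiment 2577 with and 4821 without glucose. With 1 library left out the counts of the 10 genes ranged from 4 to 6, 4 to 9, 2 to 4, 0 to 6, 3 to 7 and 2 to 3. Over all genes these fits called 2142 to 5048, 6031 to 12448, 788 to 4230, 0 to 8747, 1991 to 6553 and 1094 to 3974. Shifts over 1.5 times came without any KMT2D-WT (+Glc) library for the first comparison (2142, 3107 and 3249), any KMT2D-WT library (788 to 1246), an experiment 2 KMT2D-KO (-Glc) library (1005 and 1016) or the KO1 -Glc library of experiment 1 (4230) for the difference, any library for deprivation in KMT2D-WT, any experiment 2 library for deprivation in KMT2D-KO cells (1991 to 2997, with 3 of the 10 genes without its -Glc library labelled KO1) and any KMT2D-KO library for the lines (1094 to 2026). The cause of these shifts was not tested.

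Values that changed sign, none called, were these on the log2 scale. SPRY4 with glucose was 0.23 in KO1 alone and -0.58 to 0.0399 without 1 library. SPRED2 without glucose was -0.14 under library-size scaling. The SPRED2 difference was 0.0034 with DESeq2, 0.0092 without the replicate block, 0.0013 with RLE, 0.038 in experiment 2 and -0.065 to 0.012 without 1 library. For deprivation in KMT2D-WT cells experiment 1 gave DUSP4 0.066, DUSP5 0.22 and SPRY1 0.46, the fit of 14 libraries gave DUSP5 0.12, and without 1 library DUSP4 was -0.21 to 0.12 and DUSP5 -0.20 to 0.012. For the lines library-size scaling gave SPRED2 -0.042 and PHLDA1 -0.019, and without 1 library DUSP1 was -0.36 to 0.17, SPRY1 -0.27 to 0.64, SPRED1 -0.19 to 0.029, SPRED2 -0.018 to 0.079 and PHLDA1 -0.043 to 0.15. Library-size scaling moved the median of all genes to -0.25 without glucose, -0.23 for the difference and -0.20 for deprivation in KMT2D-KO cells. Depth limits SPRY1 most, at 5 to 14 counts in KMT2D-KO (-Glc) libraries.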
